A study of Mus musculus with 24 samples.

Results

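The interferon response genes are 41 mouse genes that interferons are known to induce, listed by symbol. Earlier results of these data were known when the list was chosen. All 41 were found among the 17149 genes of the deposited table, and all 41 passed the filter on low values that left 16215 genes for testing. Their RNA was measured in 24 bulk RNA-seq libraries of bone marrow progenitors. The cells were Lin-negative, Sca1-positive, Kit-positive (LSK) cells, divided by CD135, the receptor encoded by Flt3, into CD135-negative cells (called HSC) and CD135-positive cells (called LMPP, lymphoid-primed multipotent progenitors). GFP from a Rag2 reporter divided each gate again, where Rag2 encodes part of the enzyme that cuts antigen receptor loci. Control mice (Ctrl) were Tal1 F/F Rag2GFP, so both alleles of the blood transcription factor gene Tal1 were floxed and intact. Deleted mice (KO) were VaviCre Tal1F/F Rag2GFP, so the same floxed alleles and reporter were combined with a Cre recombinase driven by Vav regulatory sequences across blood cells. The 2 genotypes, 2 CD135 gates and 2 reporter gates gave 8 groups with 3 libraries in each. No group had received interferon or any other agent per the labels, so the values are basal levels. Nothing in the labels says that the 3 replicates of a group came from different animals, and p-values cover only the spread among these libraries, which may be technical. In bulk RNA a change in the share of cells of a type and a change in RNA per cell cannot be told apart.

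Interferons are secreted proteins that bind cell surface receptors and start a kinase relay. Type I interferons act through Ifnar1 and Ifnar2, and the kinases Jak1 and Tyk2 then activate a complex that holds Stat2 and Irf9 and binds the interferon-stimulated response element (ISRE). Type II interferon acts through Ifngr1 and Ifngr2, and its signal reaches the gamma-activated site (GAS). The induced genes encode sensors of foreign RNA, proteins that block viral entry or translation, immunity GTPases and parts of the immunoproteasome. Stem cells are known to keep some of these genes on without infection. One question was whether their basal levels in marrow were highest in the cells that the gates place nearest to the stem cell (HSC, GFP-negative). The other question was whether loss of Tal1 changed them.

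RefSeq promoters (GRCm38.p6, 250 bases before to 50 after the annotated start) were found for 34 of the 41 genes. The ISRE core, searched on both strands as GAAA, any 2 bases and GAAA, was in 19 of these 34 genes (55.9%) and in 3.99% of the 27025 genes in the promoter table, or 3.44% of its 32851 promoters. The GAS, searched as TTCNNNGAA, reads the same on both strands and was in 13 of 34 (38.2%) against 9.55% of genes and 8.3% of promoters. Both motifs were present in 7 genes and overlapped each other in 2 of them, Bst2 and Ifitm3. A match describes letters and not a bound site. The 150 bases before the start are shown for 6 genes on which the results turn, 5′ to 3′ on the gene's own strand, with ISRE cores in capitals. Oas3, Ifit1 and Ifi44 were among the genes that rose from HSC to LMPP, and Gbp3 rose with the reporter. Ifitm1, which fell with the reporter and in KO, is shown beside its neighbour Ifitm2.

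Oas3: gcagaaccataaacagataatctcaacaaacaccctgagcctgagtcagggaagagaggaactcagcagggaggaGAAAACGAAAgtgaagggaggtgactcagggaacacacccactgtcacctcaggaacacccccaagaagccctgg
Ifit1: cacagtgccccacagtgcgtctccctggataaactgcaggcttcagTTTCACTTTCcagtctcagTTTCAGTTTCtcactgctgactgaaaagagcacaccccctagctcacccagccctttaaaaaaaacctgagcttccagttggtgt
Ifi44: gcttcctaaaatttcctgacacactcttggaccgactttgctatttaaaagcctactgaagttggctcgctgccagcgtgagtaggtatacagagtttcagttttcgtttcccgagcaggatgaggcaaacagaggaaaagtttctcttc
Ifitm1: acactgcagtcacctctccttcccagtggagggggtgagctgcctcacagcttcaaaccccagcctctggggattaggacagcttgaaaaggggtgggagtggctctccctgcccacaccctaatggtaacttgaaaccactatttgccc
Ifitm2: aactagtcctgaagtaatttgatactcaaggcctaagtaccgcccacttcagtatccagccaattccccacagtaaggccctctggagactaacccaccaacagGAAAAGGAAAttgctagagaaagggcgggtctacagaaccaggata
Gbp3: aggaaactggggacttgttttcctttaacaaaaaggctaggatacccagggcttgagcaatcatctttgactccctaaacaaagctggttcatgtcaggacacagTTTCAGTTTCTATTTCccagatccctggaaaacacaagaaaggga

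These windows lie at chr5:120777660-120777809 (Oas3, minus strand), chr19:34640739-34640888 (Ifit1, plus), chr3:151749911-151750060 (Ifi44, minus), chr7:140967926-140968075 (Ifitm1, plus), chr7:140955962-140956111 (Ifitm2, minus) and chr3:142559894-142560043 (Gbp3, plus), in GRCm38. Ifit1 held 2 separate cores, Gbp3 held 2 that overlap, Oas3 and Ifitm2 held 1 each, and these letters were in neither the Ifi44 nor the Ifitm1 window. Ifitm1, Ifitm2 and Ifitm3 lie in 1 cluster on chromosome 7 (Ifitm1 at 140967221 to 140969825 on the plus strand, Ifitm3 at 141009586 to 141010770 on the minus strand). The Ifitm1 window lies wholly inside this span, which is from GENCODE, so the RefSeq and GENCODE starts of Ifitm1 differ. The bases before its GENCODE start are not shown. The other windows reach past the GENCODE start of their gene in part, for Ifi44 a start at 151749960. The lack of a core in Ifi44 and Ifitm1 thus describes the RefSeq windows alone. Ifit1, Ifit2 and Ifit3 neighbour each other on chromosome 19, Oas1a, Oas2 and Oas3 on chromosome 5, and Gbp2, Gbp3 and Gbp7 on chromosome 3.

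Library totals of the authors' normalised counts ran from 6906083 to 11969093, and sequencing depth in reads is unknown. Genes above 1 normalised count numbered 13583 to 15957 in 22 libraries, but 11982 in replicate 2 of Ctrl HSC GFP-positive cells and 11684 in replicate 3 of KO LMPP GFP-positive cells, which are called the libraries of low detection. In them single interferon genes lay far from their replicates. Ctrl HSC GFP-positive replicate 2 had 0.0322 for each of Ifit1, Isg20 and Rsad2, but 515 for Irf7 and 237 for Mx1. KO LMPP GFP-positive replicate 3 had 2.72 for Igtp and 4.94 for Rsad2, but 3746 for Psmb8. Calls whose values rest on these libraries are also given without them. Tal1 itself checked the labels: its KO libraries lay below its Ctrl libraries in each of the 4 populations, for example at 253 to 518 against 1523 to 2109 in HSC GFP-negative cells, with a log2 difference over all populations of -2.12 (SE 0.35, limma adjusted p = 0.00222). Of the gate genes, Flt3 was higher in LMPP by 2.41 (SE 0.20, limma adjusted p = 1.46e-08) and Rag2 in GFP-positive cells by 3.65 (SE 0.26, limma adjusted p = 1.45e-09).

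Basal levels differed widely among the members. Per kilobase of annotated exon, averaged over the 24 libraries, Ifitm3 stood highest at 3318 normalised counts, followed by Ifitm2 at 1666, the GTPase gene Ifi47 at 568 and Ifitm1 at 474. IFITM proteins are small membrane proteins that block fusion of virus with the cell. The immunoproteasome subunit genes Psmb9 (414 per kilobase) and Psmb8 (341 per kilobase) and the ubiquitin ligase gene Trim25 (252 per kilobase) followed. At the other end were Zbp1, a sensor of Z-form nucleic acid, at 29.4, the antiviral GTPase gene Mx1 at 24.9 and Ifit3 at 14.5 normalised counts per kilobase. The within-group SD on the log2 scale had a median of 0.60 over the members and 0.79 over all genes tested. It was smallest for Psmb9 (0.31), Ddx58 (0.33) and Irf9 (0.33) and largest for Rsad2 (1.34), Igtp (1.29) and Ifit3 (1.26), so the same difference is less certain in the latter. Reads of Ifit3 and Oas1a may be shared with near-identical neighbours. Igtp overlaps Irgm2 on the same strand, and Psmb9 overlaps Tap1 on the opposite strand, so their values are uncertain to that extent. The same limit holds for Ifi47 (Olfr56), Irf9 (Rnf31), Parp14 (Gm49730), Gbp7 (Gm43802) and Ifitm2 (Gm45717), which overlap the gene in brackets on the same strand. Some other members overlap genes on the opposite strand.

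**Figure D1:**
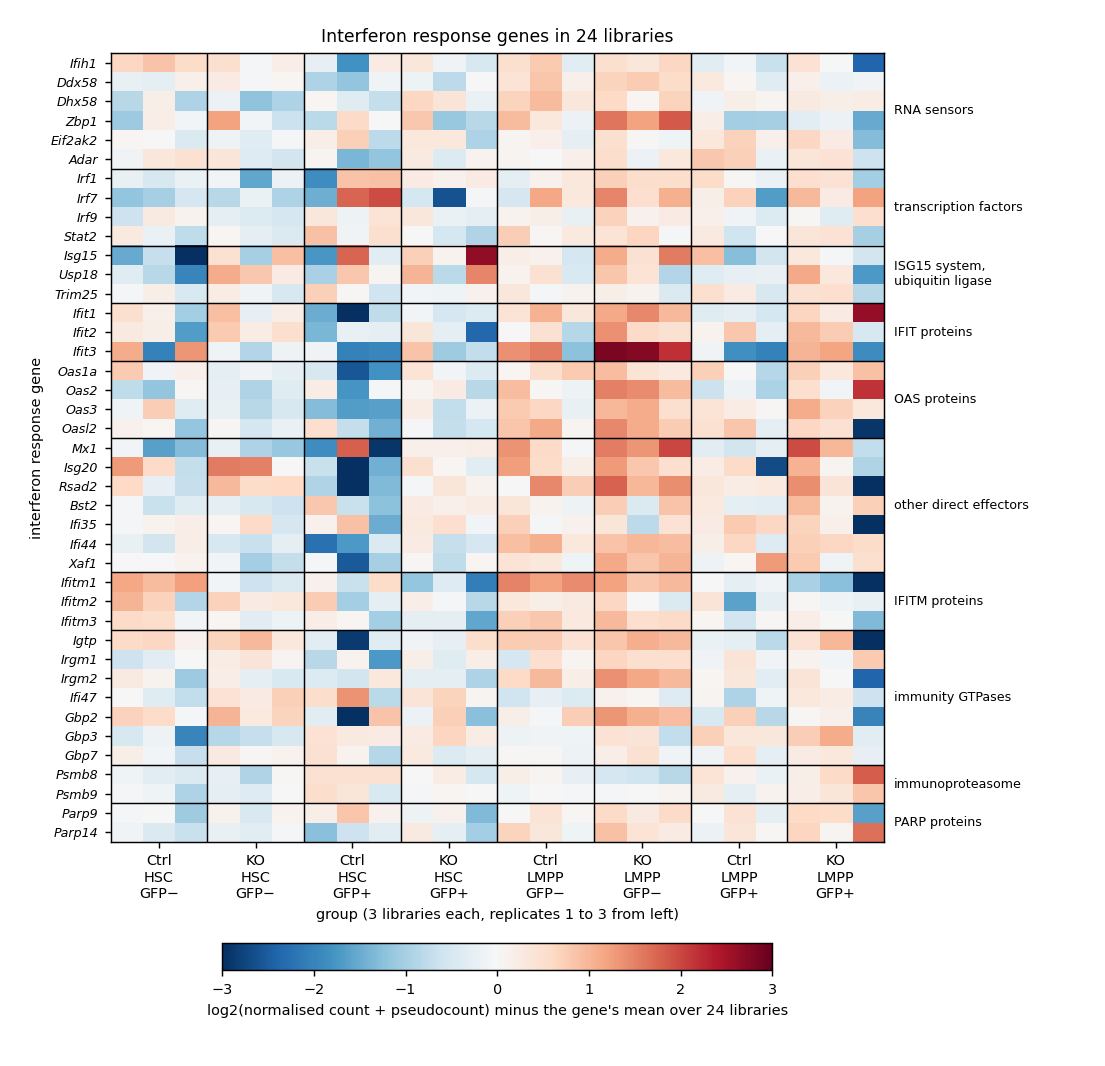
Heat map of the 41 interferon response genes (rows, grouped by role) in 24 libraries (columns, 3 per group). Colour gives log2(normalised count + 4.1) minus the gene's mean over all libraries, with values beyond 3 in either direction drawn at the end of the scale; the KO LMPP GFP-negative libraries are mostly red, and several of the darkest cells lie in the 2 libraries of low detection.

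The KO LMPP GFP-negative group had the highest mean of the 8 groups for 22 of the 41 genes, where 14.6% of all genes tested had theirs. Ctrl HSC GFP-negative cells had the highest mean for 1 member, Ifih1 (9.81% of all genes). The lowest mean fell in Ctrl HSC GFP-positive cells for 14 members, where 30.8% of all genes had theirs, a group that holds 1 of the libraries of low detection. Without both of those libraries, an alternative chosen after seeing the data, the highest mean lay in KO LMPP GFP-negative cells for 19 members (14.8% of all genes) and the lowest in Ctrl HSC GFP-positive cells for 15 (28.5%). The median over the 41 members of the log2 level relative to each gene's mean lay between 0.50 and 0.83 in the 3 KO LMPP GFP-negative libraries. It lay between 0.09 and 0.40 in Ctrl LMPP GFP-negative cells, between -0.42 and -0.02 in Ctrl HSC GFP-negative cells and between -0.33 and 0.06 in KO HSC GFP-negative cells. All LMPP GFP-negative libraries of either genotype thus lay above all HSC GFP-negative libraries. The same median over all genes tested stayed between 0.03 and 0.11 in these 12 libraries. As a share of the library total, the summed members took 3315 ± 515 ppm (SD, n = 3) in KO LMPP GFP-negative cells and 3165 ± 421 ppm in Ctrl LMPP GFP-negative cells. They took 2279 ± 160 ppm in Ctrl HSC GFP-negative cells and 1868 ± 301 ppm in Ctrl HSC GFP-positive cells, where the 2 libraries left without that of low detection had 1763 and 2208 ppm.

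**Figure D2:**
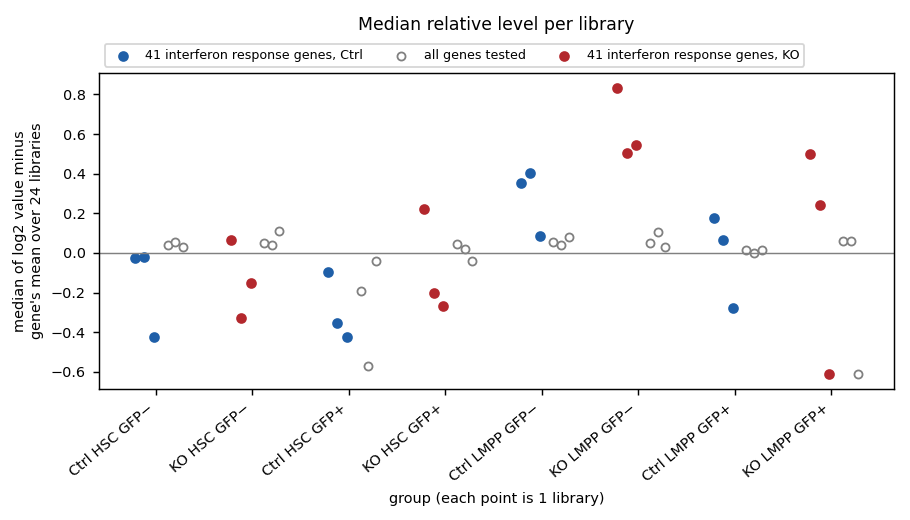
Median relative level of the 41 interferon response genes in each library (filled points, blue for Ctrl and red for KO) beside that of all genes tested (open points), by group. Each value is the median over genes of the log2 level minus the gene's mean over 24 libraries; the 3 KO LMPP GFP-negative libraries lie between 0.50 and 0.83, and KO LMPP GFP-positive replicate 3 lies at -0.61 for both sets of genes.

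The first comparison set LMPP against HSC over both genotypes and both reporter gates, with 12 libraries on each side. At an adjusted p under 0.05 (limma, Benjamini-Hochberg over all genes), 7 of the 41 genes rose in LMPP and 0 fell, where 2.47% of all genes tested rose and 1.71% fell. The difference was above 0 for 36 of 41 members and for 52.1% of all genes, and the members' median was 0.40 on the log2 scale against 0.02 over all genes. Fold changes here are on the scale of log2(value + 4.1), which understates the change of low genes. At an unadjusted p under 0.05 there were 16 members, where 15.4% of all genes were.

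Among the OAS genes, whose proteins make the short oligoadenylates that switch on RNase L, Oas3 and Oas2 rose. Oas3 was at 429.9, 786 and 366 normalised counts in Ctrl HSC GFP-negative libraries and 816, 729 and 399 in Ctrl LMPP GFP-negative libraries, so these groups overlapped. In Ctrl GFP-positive cells it was at 188, 144 and 149 in HSC and 621, 552 and 479.8 in LMPP, with no overlap. In KO cells Oas3 was at 403, 262 and 338 (HSC) and 935, 1017 and 658 (LMPP) without the reporter, and at 549, 278 and 418 (HSC) and 1024, 761 and 585 (LMPP) with it. Neither of these KO pairs overlapped. Oas3 was 2.13-fold higher in LMPP, a log2 difference of 1.09 (SE 0.18, limma adjusted p = 0.000292). Oas2 rose by 0.92 (SE 0.27, limma adjusted p = 0.0491), and its 782, 737 and 535 in KO LMPP GFP-negative cells stood above every HSC library, the highest of which had 327. Oas1a (0.79, SE 0.26) and Oasl2 (0.76, SE 0.31) did not pass. Oas3 passed in each of the 9 alternative settings and without each library in turn, whereas the call for Oas2 was lost in 19 of the 24 fits that left out 1 library, with adjusted p up to 0.11.

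Ifi44, a cytoplasmic protein gene strongly induced by type I interferon, followed the same order. It was at 232, 183 and 310.4 in Ctrl HSC GFP-negative libraries against 508, 567 and 336 in Ctrl LMPP GFP-negative libraries. In KO GFP-negative cells it was at 193, 167 and 221 in HSC against 489.6, 541 and 514 in LMPP. All 6 LMPP GFP-negative libraries were above all 6 HSC GFP-negative libraries. With the reporter it was at 54.1, 78.7 and 199.6 (Ctrl HSC), 305, 418 and 204 (Ctrl LMPP), 319.6, 164 and 189 (KO HSC) and 447, 416 and 394 (KO LMPP). Over all libraries Ifi44 was 2.34-fold higher in LMPP (log2 1.22, SE 0.21, limma adjusted p = 0.000481).

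Parp14, a mono-ADP-ribosyltransferase gene, and Xaf1, a gene known to promote cell death after interferon, also rose. Parp14 had a lowest, median and highest value of 290.2, 551 and 842 in the 12 HSC libraries and 617, 886 and 2195 in the 12 LMPP libraries, the last in KO LMPP GFP-positive replicate 3. Its log2 difference was 0.84 (SE 0.18, limma adjusted p = 0.00612). Xaf1 had 47.4, 276 and 312 in HSC and 261, 394 and 702 in LMPP, a log2 difference of 0.99 (SE 0.24, limma adjusted p = 0.0138). Both ranges overlapped between the gates. Oas3, Ifi44, Parp14 and Xaf1 were the 4 genes whose call held in every alternative setting and without any single library.

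Of the 6 RNA sensor genes, Ddx58, which encodes RIG-I, rose. It ran from 249 to 680.4 in HSC, with a median of 521, and from 439 to 1012 in LMPP, with a median of 669.9, a log2 difference of 0.54 (SE 0.15, limma adjusted p = 0.045). Dhx58, a RIG-I-like helicase gene, had 0.68 (SE 0.21, limma adjusted p = 0.0627) and Ifih1 had -0.10 (SE 0.27), and neither passed. Of the IFIT genes, whose proteins bind foreign RNA and halt translation, Ifit1 rose by 1.28 (SE 0.37, limma adjusted p = 0.0485), with 0.0322 to 232 in HSC and 83.1 to 781 in LMPP. Both extremes of Ifit1 came from the libraries of low detection. Leaving out single libraries ended the call of Ddx58 in 17 of 24 fits, with adjusted p up to 0.0991, and that of Ifit1 in 19 of 24, with adjusted p up to 0.102. Without both libraries of low detection 13 members rose, where 5.14% of all genes rose, and Ddx58, Ifit1 and Oas2 were among them. Their differences were then smaller, at 0.49 (SE 0.14), 0.78 (SE 0.21) and 0.60 (SE 0.19). The limma adjusted p was 0.0245, 0.0202 and 0.0487 in that order.

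None of the 4 transcription factor genes passed. Irf7, the amplifier of type I interferon production, had a lowest, median and highest value of 21.4, 93.6 and 597 in HSC and 45.0, 233 and 423 in LMPP, a log2 difference of 0.94 (SE 0.38, limma adjusted p = 0.196), Stat2 had 0.26 (SE 0.20) and Irf9 had 0.16 (SE 0.16). Mx1 ran from 5.08 to 237 in HSC and from 37.8 to 273 in LMPP (log2 1.30, limma adjusted p = 0.0905). Isg15, the ubiquitin-like modifier, had 0.29 (SE 0.42), with between 2.99 and 361 normalised counts in HSC and between 19.9 and 168 in LMPP. Of 7 immunity GTPase genes, 6 were above 0 and none passed, and Ifi47 was below 0 (-0.42, SE 0.19, limma adjusted p = 0.277). Ifi47 was the 1 member below 0 in all 4 strata of genotype and reporter (9.0% of all genes), while 16 members were above 0 in all 4 (11.2% of all genes).

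**Figure D3:**
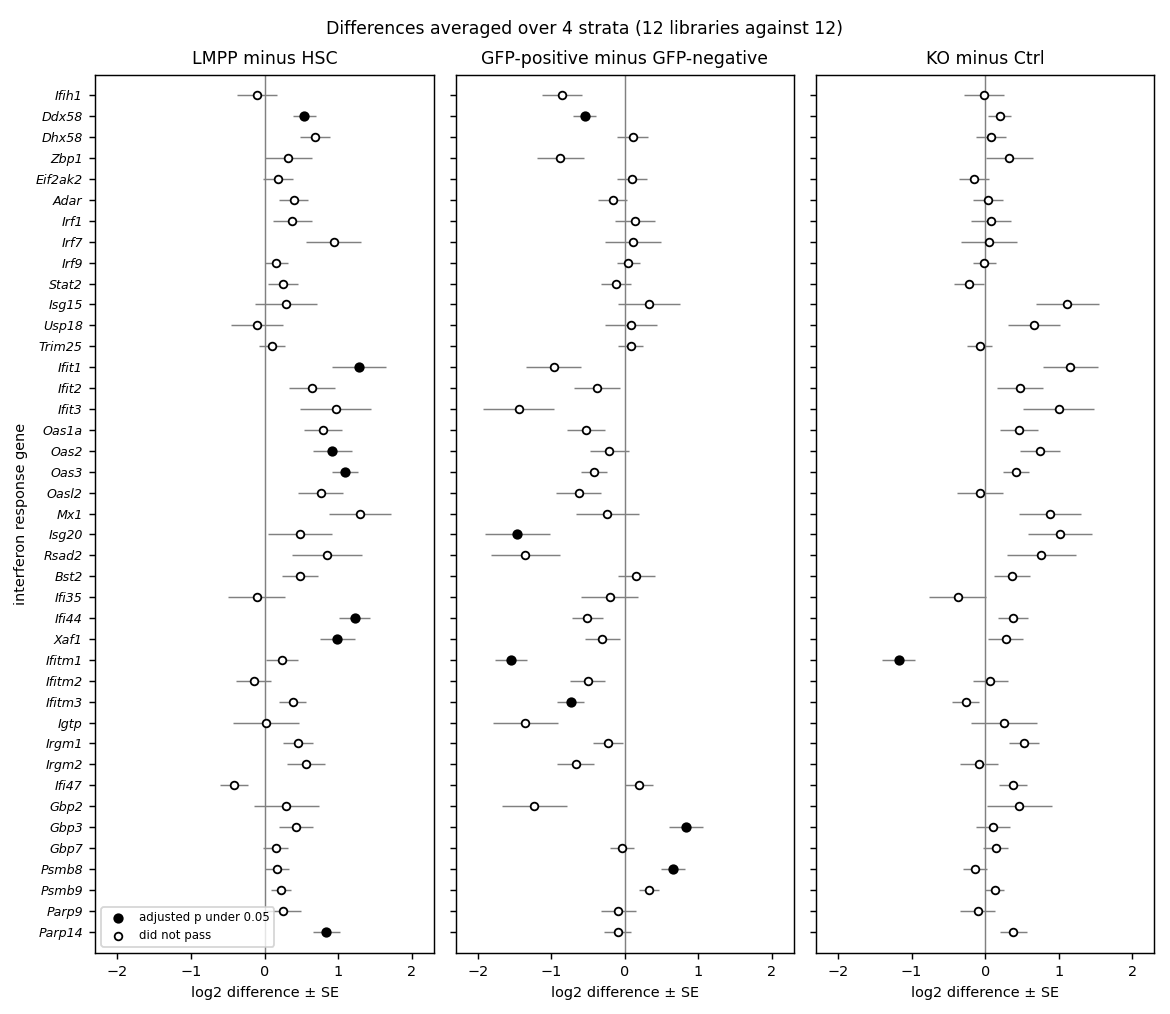
Log2 difference with its SE for each of the 41 genes in the 3 comparisons of 12 libraries against 12. Filled points passed an adjusted p under 0.05 (limma): 7 genes to the right in LMPP minus HSC, 2 to the right and 4 to the left in GFP-positive minus GFP-negative, and Ifitm1 alone, to the left, in KO minus Ctrl.

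Of the 4 strata, the most members separated between KO LMPP and KO HSC without the reporter, where 22 of the 41 members had all 3 LMPP libraries above all 3 HSC libraries, against 11.2% of all genes, and 1, Ifi47, had the reverse (11.1%). The difference was above 0 for 35 of 41 members and 49.1% of all genes, and the members' median was 0.70 against -0.01. No member passed when all 24 libraries shared 1 estimate of the spread (0.413% of all genes rose, 0.463% fell), with 15 at an unadjusted p under 0.05 (8.15% of all genes). From the 6 libraries alone 11 members passed, all higher in LMPP (2.42% of the genes tested there rose): Irf7, Ifit3, Oas2, Oas3, Oasl2, Mx1, Ifi44, Xaf1, Ifitm1, Ifitm3 and Irgm2. Without both libraries of low detection, neither of which is in these groups, 7 passed (1.49% of all genes rose). Mx1 was at 55.5, 32.3 and 27.4 in KO HSC and 197, 171 and 273 in KO LMPP GFP-negative libraries, a log2 difference of 2.38 (SE 0.85). Ifit3 was at 11.4, 5.02 and 11.1 in KO HSC against 116, 109.8 and 72.3 in KO LMPP. Neither gene overlapped between the groups. Between the same groups 3 of 7 mast cell markers were lower in LMPP, with summed levels of 2187 to 10461 in KO HSC and 27.2 to 3117 in KO LMPP. Of the lymphoid-primed markers, a list that holds the gate gene Flt3, 4 of 8 were higher. The part of both lists in the result was not tested.

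In the other strata fewer members separated. Between Ctrl LMPP and Ctrl HSC without the reporter, 7 members did not overlap and were higher (7.68% of all genes), 0 were lower (7.11%), and 36 of 41 were above 0 (51.4% of all genes). No member passed there (0.117% of all genes rose, 0.253% fell), with 2 at an unadjusted p under 0.05 (4.59% of all genes). In Ctrl GFP-positive cells Oas3 alone passed, with a log2 difference of 1.76 (SE 0.36, limma adjusted p = 0.0134, 0.574% of all genes rose and 0.321% fell), and 28 of 41 members were above 0 (59.9% of all genes). There 5 members were higher with no overlap (9.4% of all genes) and 1 was lower (4.88%), and 10 were at an unadjusted p under 0.05 (15.3%). The Oas3 call was lost without Ctrl LMPP GFP-positive replicate 1 or 2, with adjusted p up to 0.071. In KO GFP-positive cells 26 members were above 0 (44.5%), 5 were higher with no overlap (6.95%) and 0 were lower (7.56%). None passed there (0.302% of all genes rose, 0.308% fell), with 5 at an unadjusted p under 0.05 (11.4% of all genes). The test of whether the LMPP difference depended on genotype passed for 0 members (0.0123% of all genes passed in either direction), with 1, Irf7, at an unadjusted p under 0.05 (6.32% of all genes).

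The second comparison set GFP-positive against GFP-negative cells over both genotypes and both gates. Of the 41 genes 4 fell, Ifitm1, Ifitm3, Ddx58 and Isg20, and 2 rose, Psmb8 and Gbp3. Among all genes 5.09% fell and 2.13% rose, so calls leaned to lower values, with 29.5% of all calls higher. The difference was above 0 for 13 of 41 members and for 38.0% of all genes, and the members' median was -0.23 against -0.14 over all genes. At an unadjusted p under 0.05 there were 18 members (21% of all genes). Scaled to the mean library total, the median over all genes was -0.26 and 14.5% of calls were higher. Then 8 members fell (6.53% of all genes), 0 rose (1.11%) and neither Psmb8 nor Gbp3 passed.

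Ifitm1 showed the largest of the member differences that passed. It was at 897, 777 and 937 in Ctrl HSC GFP-negative libraries against 435, 251 and 592 in Ctrl HSC GFP-positive libraries. In Ctrl LMPP it was at 1123, 924 and 1078 without the reporter and 395, 333 and 369 with it. In KO LMPP it was at 929, 704 and 785 without and 200.1, 165 and 44.5 with the reporter, and none of these 3 pairs of groups overlapped. In KO HSC it was at 376, 257 and 296 without and 176, 306 and 92.3 with the reporter, which overlapped. Ifitm1 was thus 2.92-fold lower in GFP-positive cells (log2 -1.55, SE 0.22, limma adjusted p = 5.67e-05), and it passed in all 9 alternative settings and without each library in turn. Within KO LMPP alone it was 6.78-fold lower (log2 -2.76, SE 0.44, limma adjusted p = 0.00139), though with those 6 libraries alone the adjusted p was 0.202. The value of 44.5 there came from replicate 3, a library of low detection. Without both libraries of low detection, the Ifitm1 difference over all strata was smaller, at -1.30 (SE 0.16, limma adjusted p = 2.72e-06). The interaction of gate and reporter for Ifitm1 was -1.17, with an unadjusted p of 0.0141 and a limma adjusted p of 0.591.

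Ifitm3 fell in the same comparison and Ifitm2 did not pass. Ifitm3 was at 3389, 3620.2 and 2538 in Ctrl LMPP GFP-negative libraries against 2157, 1408 and 2124 in Ctrl LMPP GFP-positive libraries. In KO LMPP it was at 4078, 2941 and 3102 against 2370.3, 2102 and 818, and neither LMPP pair overlapped. In HSC the pairs overlapped, at 3071, 2978 and 1952 against 2395, 2153 and 1028 in Ctrl and 2144, 1637 and 1866 against 1727, 1683 and 705 in KO. The log2 difference of Ifitm3 was -0.74 (SE 0.19, limma adjusted p = 0.0137). That of Ifitm2 was -0.51 (SE 0.24, limma adjusted p = 0.215).

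Ddx58 fell with the reporter by 0.55 on the log2 scale (SE 0.15, limma adjusted p = 0.029), from 467 to 1012 in GFP-negative libraries to 249 to 701 in GFP-positive ones, whose ranges overlapped. Isg20, an RNA exonuclease gene, fell by 1.46 (SE 0.44, limma adjusted p = 0.0406). Isg20 ran from 88.8 to 443 in GFP-negative libraries and from 0.0322 to 308 in GFP-positive ones, the lowest being Ctrl HSC GFP-positive replicate 2. Its call was lost without both libraries of low detection and in 13 of 24 fits that left out 1 library, with adjusted p up to 0.0827. The call of Ddx58 was lost without any 1 of 6 libraries: Ctrl HSC GFP-negative replicate 3, Ctrl LMPP GFP-negative replicate 2, Ctrl LMPP GFP-positive replicate 3, KO HSC GFP-negative replicate 1, KO HSC GFP-positive replicate 2 and KO LMPP GFP-negative replicate 2, with adjusted p up to 0.0605. In all 4 strata 11 members were below 0 (17.0% of all genes): Ifih1, Ddx58, Ifit1, Oasl2, Isg20, Rsad2, Ifitm1, Ifitm2, Ifitm3, Igtp and Gbp2.

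Psmb8, a catalytic subunit of the immunoproteasome, and Gbp3, a guanylate-binding GTPase gene, were higher in GFP-positive cells. Psmb8 was at 965, 831 and 787 in Ctrl HSC without the reporter and 1451, 1445 and 1448 with it. In KO LMPP it was at 743, 699 and 593 without and 1197, 1564 and 3746 with the reporter, the last in a library of low detection. These 2 pairs did not overlap, whereas the pairs of Ctrl LMPP and KO HSC did. Over all libraries the log2 difference of Psmb8 was 0.66 (SE 0.16, limma adjusted p = 0.0127), and without both libraries of low detection it was 0.54 (SE 0.13, limma adjusted p = 0.00709). Within KO LMPP it was 1.5 (SE 0.33, limma adjusted p = 0.0178), a call lost without KO LMPP GFP-positive replicate 3 or any 1 of the 3 GFP-negative libraries, with adjusted p up to 0.151. Gbp3 was at 42.9 to 244.8 in GFP-negative and 143 to 395 in GFP-positive libraries, a log2 difference of 0.83 (SE 0.23, limma adjusted p = 0.0293). The call of Gbp3 was lost without any 1 of Ctrl HSC GFP-negative replicate 3, Ctrl LMPP GFP-positive replicate 1, KO HSC GFP-negative replicate 1, KO HSC GFP-positive replicate 2, KO LMPP GFP-negative replicate 3 and KO LMPP GFP-positive replicate 2, with adjusted p up to 0.0565. Psmb9, the other immunoproteasome gene, had 0.33 (SE 0.13, limma adjusted p = 0.151). Gbp3, Psmb8 and Psmb9 were the 3 members above 0 in all 4 strata (8.15% of all genes).

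**Figure D4:**
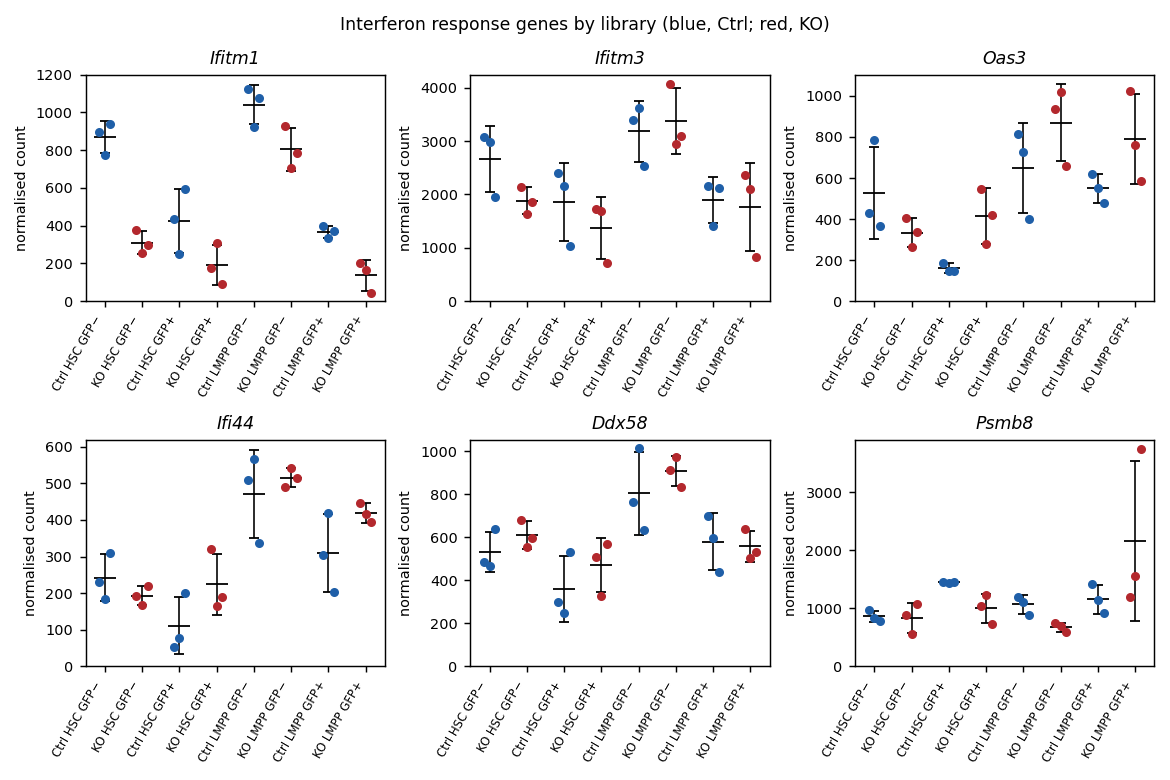
Normalised counts (linear axes from 0) of Ifitm1, Ifitm3, Oas3, Ifi44, Ddx58 and Psmb8 in each library, with bars for the mean and SD of 3 libraries (blue, Ctrl; red, KO). Ifitm1 steps down from GFP-negative to GFP-positive groups, Ifi44 and Oas3 are higher in LMPP, and 1 KO LMPP GFP-positive library holds the Psmb8 value of 3746.

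In Ctrl HSC the reporter split passed for 2 members, both OAS genes and both lower in GFP-positive cells (1.95% of all genes fell, 0.765% rose). Oas3 fell by 1.62 on the log2 scale (SE 0.36, limma adjusted p = 0.012), with the values given above. Oas1a was at 223, 120.1 and 144 without and 91.4, 18.4 and 33.8 with the reporter, a log2 difference of -1.89 (SE 0.52, limma adjusted p = 0.0465). The call of Oas3 was lost without Ctrl HSC GFP-negative replicate 2 (limma adjusted p = 0.0864). That of Oas1a was kept in 1 of the 6 fits that left out a library, without Ctrl HSC GFP-positive replicate 1, with adjusted p up to 0.191 in the others. The count of members that passed ran from 0 to 6 with single libraries left out, reaching 6 without Ctrl HSC GFP-positive replicate 1 or 3. This range was not set against the share of all genes in the same fits. In KO HSC no member passed (0.154% of all genes rose, 0.222% fell), with 2 at an unadjusted p under 0.05 (5.41% of all genes), and in Ctrl LMPP none passed (0.0308 and 0.0247%), with 1 (4.96%). The same counts were 14 in Ctrl HSC (17.7%) and 11 in KO LMPP (15.5%). In KO LMPP 1 member rose, Psmb8, and 1 fell, Ifitm1 (0.586% of all genes rose, 0.567% fell). Members above 0 numbered 19 in Ctrl HSC (39.3% of all genes), 12 in Ctrl LMPP (46.8%), 19 in KO HSC (45.7%) and 8 in KO LMPP (40.6%). With no overlap, 12 members were lower in GFP-positive KO LMPP (11% of all genes) and 2 higher (8.05%). The counts were 7 lower (12.1%) and 3 higher (5.66%) in Ctrl HSC, 7 (8.23%) and 1 (6.58%) in Ctrl LMPP, and 2 (9.04%) and 4 (6.44%) in KO HSC. The interaction of gate and reporter passed for 0 members (0.13% of all genes), with 4 at an unadjusted p under 0.05 (6.69%).

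The third comparison set KO against Ctrl over the 4 populations. Ifitm1 was the 1 member that passed and it fell (0.185% of all genes fell), while 0 rose (0.284% of all genes). The difference was above 0 for 29 of 41 members and 54.0% of all genes, and the members' median was 0.20 against 0.03 over all genes. At an unadjusted p under 0.05 there were 10 members (7.73% of all genes), of which Ifitm1 was the only one with a negative difference.

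Ifitm1 was 2.26-fold lower in KO (log2 -1.18, SE 0.22, limma adjusted p = 0.00884). The call held in all 9 alternative settings and without each library in turn, with differences between -1.28 and -1.02 in the latter. KO libraries lay below Ctrl libraries with no overlap in HSC GFP-negative cells (257 to 376 against 777 to 937) and in LMPP GFP-positive cells (44.5 to 200.1 against 333 to 395). They overlapped in HSC GFP-positive cells (92.3 to 306 against 251 to 592). In LMPP GFP-negative cells they were at 704 to 929 against 924 to 1123, overlapping at 1 library. The log2 differences were -1.49, -1.64, -1.21 and -0.37 in that order (SE 0.44 each), and none passed within a single population (limma adjusted p = 0.401, 0.626, 0.198 and 1). The interaction of genotype with gate or reporter passed for no member (0.0123 and 0.00617% of all genes), with 1 and 3 at an unadjusted p under 0.05 (6.32 and 4.36%), and Ifitm1 was not among them. Its neighbours moved less, with log2 differences of -0.27 (SE 0.19) for Ifitm3 and 0.07 (SE 0.24) for Ifitm2.

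The members with a positive difference at an unadjusted p under 0.05 were Ifit1, Oas2, Isg15, Irgm1, Oas3, Isg20, Parp14, Mx1 and Ifit3, and none passed. Ifit1 had 1.16 (SE 0.37, limma adjusted p = 0.292), Oas2 0.74 (SE 0.27, limma adjusted p = 0.423) and Isg15 1.12 (SE 0.42, limma adjusted p = 0.47). Ifit1 ran from 0.0322 to 255 in Ctrl and 85.2 to 781 in KO, and both of its extremes came from the libraries of low detection. In all, 10 members were above 0 in all 4 populations (7.6% of all genes), and Trim25 and Ifitm1 were below 0 in all 4 (6.3%). Without both libraries of low detection 2 members rose, Mx1 and Rsad2, beside the fall of Ifitm1, where 0.533% of all genes rose and 0.347% fell.

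Each of 6 numbers in the sample descriptions is shared by the 4 populations of 1 genotype, so 3 Ctrl and 3 KO means per number could be compared. The means of 6 members were higher in KO with no overlap (6.33% of all genes): Ifit1, Oas2, Oas3, Mx1, Ifi44 and Parp14. That of Ifitm1 was lower with no overlap (4.5% of all genes). The log2 means of Ifitm1 were 9.34, 8.96 and 9.43 in Ctrl and 8.40, 8.29 and 7.51 in KO. With 3 against 3, each of these 7 genes had 0.1 in an exact permutation test (two-sided), and no smaller p is possible. Means that do not overlap always give this p, so it adds nothing to the lack of overlap.

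Within single populations no member passed for KO against Ctrl. In LMPP GFP-negative cells 10 members did not overlap and were higher in KO (5.38% of all genes), and 1, Psmb8, was lower (5.43%). The 10 were Zbp1, Irf1, Isg15, Ifit2, Ifit3, Oas2, Xaf1, Igtp, Irgm2 and Gbp2, and 34 of 41 members were above 0 (49.2% of all genes). Zbp1 was at 115 ± 47.2 in Ctrl and 259 ± 56.5 in KO (mean ± SD, n = 3). Oas2 was at 523, 279 and 247 in Ctrl and 782, 737 and 535 in KO. This comparison shares its KO libraries with that of KO LMPP against KO HSC, so the 2 counts are not independent. In HSC GFP-positive cells 6 members did not overlap and were higher (9.36%) and 1 was lower (4.95%), in HSC GFP-negative cells 3 (6.66%) and 4 (6.03%), and in LMPP GFP-positive cells 3 (4.3%) and 1 (5.25%). At an unadjusted p under 0.05 there were 1, 10, 4 and 4 members in these populations in the order given here, beginning with LMPP GFP-negative cells, against 2.48, 15.3, 3.44 and 7.72% of all genes. Members above 0 numbered 26 in HSC GFP-positive cells (59.9% of all genes), 24 in HSC GFP-negative cells (52.4%) and 25 in LMPP GFP-positive cells (44.6%). In the same order as the counts of p, genes that rose made up 0.0247, 0.315, 0.136 and 0.0308%, and those that fell 0.0308, 0.117, 0.0247 and 0.0123% of all genes.

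Of 47 further genes of the pathway, 37 were in the table and were tested. Of the 10 ligand genes Ifnk was in the table and was tested, and the others were not found in it. In LMPP 5 of the 37 rose and 0 fell, where 2.47% of all genes rose and 1.71% fell. The genes that rose were the type I receptor chain gene Ifnar1, the DNA-sensing adaptor gene Tmem173 (STING), the nucleic acid receptor genes Tlr7 and Tlr9, and Irf4. Tlr7, an endosomal receptor for single-stranded RNA, was at 19.9, 17.9 and 24 in Ctrl HSC GFP-negative libraries and 246, 254 and 249 in Ctrl LMPP GFP-negative libraries. Its log2 difference was 2.72 (SE 0.26, limma adjusted p = 1.92e-07), and it also rose with the reporter by 1.82 (SE 0.26, limma adjusted p = 5.79e-05). Ifnar1 was at 271 to 551 in HSC and 472 to 796 in LMPP, a log2 difference of 0.58 (SE 0.15, limma adjusted p = 0.0212). Tmem173 rose by 0.90 (SE 0.19, limma adjusted p = 0.00529). Tlr9 and Irf4 were at or under 63.7 in every library.

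With the reporter 4 of the 37 rose (2.13% of all genes) and 0 fell (5.09%): Irf8, Tlr7, Il10rb and Ifnar2. Irf8, a factor required for dendritic cell and monocyte development, was at 12 to 402 in GFP-negative libraries and 292 to 1526 in GFP-positive ones, a log2 difference of 2.78 (SE 0.33, limma adjusted p = 4.75e-06). Ifnar2, the other type I receptor chain, rose by 0.57 (SE 0.17, limma adjusted p = 0.036). Scaled to the mean library total, neither Ifnar2 nor Il10rb passed, and neither did Ifnar1 in LMPP. Ifngr1, the type II receptor chain gene, did not pass in any of the 3 comparisons. In KO against Ctrl 0 of the 37 passed (0.284% of all genes rose, 0.185% fell). The class I antigen presentation genes (8 tested) passed in none of the 3 comparisons.

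**Figure D5:**
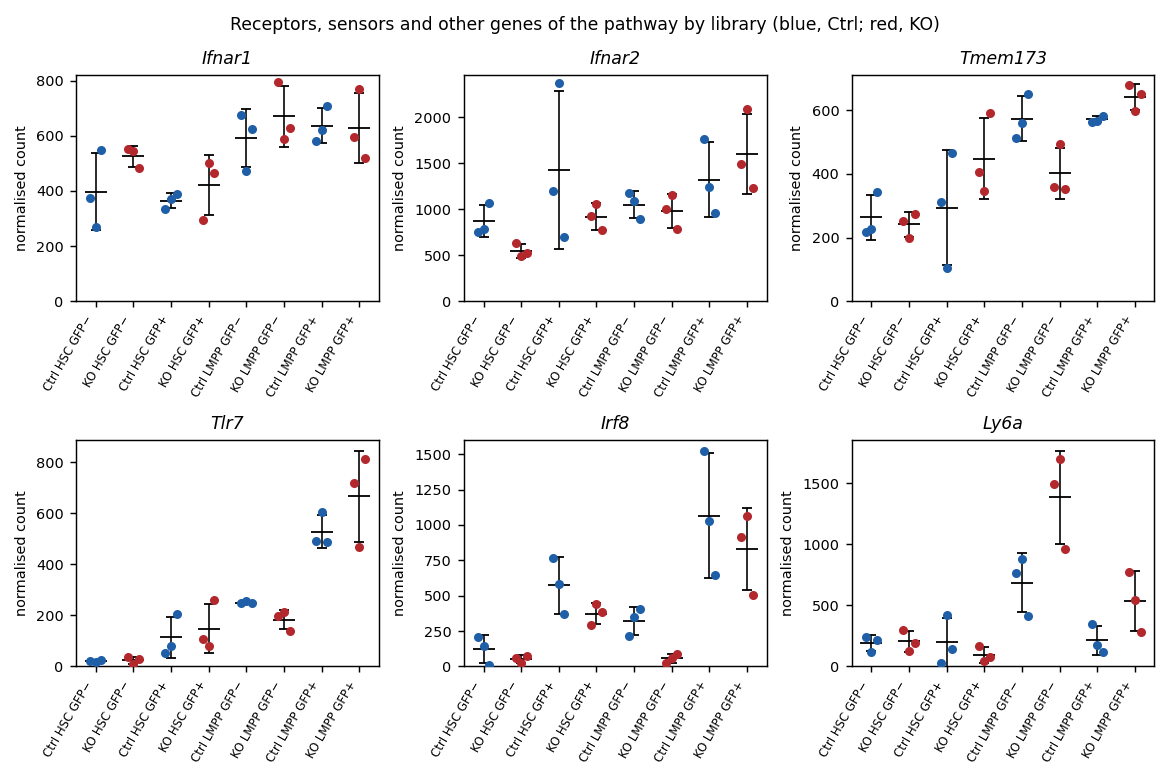
Normalised counts (linear axes from 0) of Ifnar1, Ifnar2, Tmem173, Tlr7, Irf8 and the gate gene Ly6a in each library, with bars for the mean and SD of 3 libraries (blue, Ctrl; red, KO). Tlr7 and Irf8 are highest in LMPP GFP-positive groups, and Ly6a in KO LMPP GFP-negative cells.

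Several marker lists moved with these comparisons, and their part in the results was not tested. Among all genes 2.47% rose and 1.71% fell in LMPP, and 2.13% rose and 5.09% fell with the reporter. In KO 0.284% of all genes rose and 0.185% fell. Ly6a, which encodes the Sca1 of the sort gate and is itself inducible by interferon, was at 1494, 1703 and 959.6 in KO LMPP GFP-negative libraries and 764, 878 and 416 in Ctrl LMPP GFP-negative ones. Ly6a rose in LMPP by 1.92 (SE 0.32, limma adjusted p = 0.000406) and fell with the reporter by 1.22 (SE 0.32, limma adjusted p = 0.0182). Plasmacytoid dendritic cells are known for high interferon gene expression, and 3 of 6 of their markers rose in LMPP and 3 of 6 with the reporter. Their summed level ran from 870 to 2228 in HSC and 1554 to 4878 in LMPP. The sum was 1554 to 1732 in KO LMPP GFP-negative cells and 1706 to 2180 in Ctrl LMPP GFP-negative cells. Lymphoid-primed markers rose in LMPP in 7 of 8 cases and with the reporter in 8 of 8. This list holds Flt3, the gene of the CD135 gate, and Rag2, the gene of the reporter. The rise of Flt3 in LMPP and of Rag2 with the reporter was thus set by the sort. The list also shares Ccr9 with the plasmacytoid dendritic cell list. Stem cell markers fell with the reporter in 8 of 9 cases, and in LMPP 1 of 9 rose and 1 fell. Their summed level was 16641 to 19601 in KO LMPP GFP-negative cells and 6149 to 7422 in KO HSC GFP-negative cells. In Ctrl GFP-negative cells it overlapped, at 10200 to 12684 in LMPP and 7909 to 12793 in HSC. By these sums, which abundant markers weigh on most, the HSC gate was thus not the higher one among GFP-negative cells. Gene by gene in Ctrl GFP-negative cells, 4 of 9 were above 0 in LMPP (51.4% of all genes). The median log2 difference there was -0.10, and 0 passed. In KO GFP-negative cells 7 of 9 were above 0 (49.1% of all genes), with a median of 0.62, and 1 rose. Mast cell markers fell in LMPP in 3 of 7 cases and with the reporter in 5 of 7, and erythroid markers fell with the reporter in 2 of 7. Of the T and NK cell markers 1 of 4 tested fell in KO. In KO 5 of 7 mast cell markers and 5 of 7 erythroid markers rose. The summed erythroid markers ran from 52.4 to 432 in Ctrl and 601 to 9871 in KO, and the summed mast cell markers from 0.888 to 1758 and 3.36 to 10461. Of the monocyte and macrophage markers 0 of 7 tested passed in KO, and their summed level ran from 1095 to 4357 in Ctrl and 1059 to 2091 in KO.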

How the data were processed

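RNA of 24 libraries was extracted with an RNeasy Micro kit and amplified with NuGEN Ovation Ultralow reagents, per the labels' protocols. The deposited signal values are the authors' normalised counts per gene. The submitters' processing notes name Trimmomatic 0.33, HTSeq 0.6.1, edgeR and mm10; the aligner and the normalising function are not given in the sources used here. Whole numbers (to 0.001) made up 0.594% of the values above 0, so reads were not recovered and no count model was fitted. The precision of each value in reads is therefore unknown. Identifiers were matched to GENCODE M21, which lacked 164 of them.

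Genes with at least 1 ppm of a library's own total in at least 3 libraries were fitted as log2(value + 4.1), with limma 3.58.1 in R 4.3.3. The pseudocount was 0.5 ppm of the mean library total (8196846). The model had 8 group means and a trend on intensity, with 16 degrees of freedom from residuals and 9.53 from the prior. Benjamini-Hochberg adjustment ran over all 16215 genes, separately for each of 18 comparisons, with a threshold of 0.05. The fit was tested on simulated data. Promoter sequences came from RefSeq (GRCm38.p6). The members and all lists were chosen with earlier results of these data known. Library values are given for members that passed in any comparison (the 14 smallest adjusted p) and for a few core genes, and pathway genes are named where they passed; 1 core gene is not reported here. Alternatives changed the pseudocount, filter, scaling, library weights, block or libraries. Replicate numbers did not meet the criterion for pairing the libraries, and fits with a block are alternatives.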

Additional observations from a re-analysis of the deposited data

How the results depend on the processing

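Over all alternatives, 2844 values of the named genes kept their direction and side of the threshold, 57 newly passed, 200 no longer passed and 33 changed sign; the cause was not tested. Of the 41 genes, those passing in LMPP against HSC numbered 7, but 4 with median ratio scaling, 16 with array weights and 13 without both libraries of low detection, while genes that rose went from 2.47% of all genes to 2.3, 5.51 and 5.14%. They numbered 4 to 10 with single libraries left out: 10 without KO LMPP GFP-positive replicate 3, and 4 without any 1 of Ctrl HSC GFP-negative 1, Ctrl LMPP GFP-negative 1 or 2, Ctrl LMPP GFP-positive 1 or 2, KO HSC GFP-negative 2 or 3, KO HSC GFP-positive 1 or 2, and KO LMPP GFP-negative 1, 2 or 3. For the reporter the count was 6, but 10 with array weights (all genes 2.13% higher and 5.09% lower, then 3.74 and 6.43%), and 3 (without KO HSC GFP-negative replicate 1 or KO HSC GFP-positive replicate 2) to 12 (without Ctrl HSC GFP-positive replicate 3), with 10 without Ctrl HSC GFP-positive replicate 1 or KO LMPP GFP-positive replicate 1. For KO it was 1, but 3 with array weights and 3 without the libraries of low detection (all genes 0.284% higher and 0.185% lower, then 0.715 and 0.407%, and 0.533 and 0.347%). In KO against Ctrl in HSC GFP-negative cells the count was 0, but 1 with array weights, without the libraries of low detection, or from the compared libraries alone (all genes 0.0247% lower, then 0.456, 0.112 and 0.145%). In HSC GFP-positive cells it was 0, but 1 scaled to the mean total (all genes 0.315% higher, then 1.1%), 3 without the libraries of low detection and 0 to 3 with single libraries left out, 3 being without Ctrl HSC GFP-positive replicate 1 and 2 without replicate 3. For the reporter in Ctrl HSC it was 2, but 1 with a pseudocount of 2 ppm, median ratio scaling or without the libraries of low detection, 0 with weighted libraries (array weights) or the compared libraries alone, and 0 to 6 with single libraries left out. In Ctrl LMPP it was 0, but 1 with array weights, without the libraries of low detection or from the compared libraries alone. In KO LMPP it was 2, but 5 with array weights (all genes 0.567% lower, then 2.37%), 1 without the libraries of low detection, 0 from the compared libraries alone, and 1 to 3 with single libraries left out. For LMPP against HSC in Ctrl GFP-positive cells it was 1, but 2 scaled to the mean total, 0 with array weights or the compared libraries alone, 3 without the libraries of low detection, and 0 to 5 with single libraries left out, 5 and 4 without Ctrl HSC GFP-positive replicates 3 and 1. In KO GFP-negative cells it was 0, but 1 with a pseudocount of 2 ppm, 13 with array weights, 7 without the libraries of low detection and 11 from the compared libraries alone, while genes that rose went from 0.413% of all genes to 0.592, 3.23, 1.49 and 2.42%. In KO GFP-positive cells it was 0, but 1 with array weights. Where no share of all genes stands beside a count, that share may have changed as well. Such counts therefore do not tell a change in the members from a change in calls over all genes.

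With the reporter Irf7 changed sign to -0.049 scaled to the mean total, to -0.066 without the libraries of low detection and ran from -0.042 to 0.38 with single libraries left out. Irf9 changed to -0.11 scaled to the mean total and ran from -0.020 to 0.10, Stat2 to 0.055 without the libraries of low detection, and Mx1 ran from -0.59 to 0.0027, the latter without Ctrl HSC GFP-positive replicate 3. In KO, Irf7 ran from -0.23 to 0.24 with single libraries left out, and Irf9 changed to 0.037 scaled to the mean total and ran from -0.078 to 0.043.

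Libraries of the same replicate number in compared groups correlated at -0.03 to 0.20, above 0.1 in 6 of 36 pairs, so the criterion for pairing (all pairs above 0.1) was not met. As a hint from the data, 29 of 36 libraries correlated best with their own number, and within a genotype, where the number also goes with a shared description number, 23 of 24 pairs were above 0. With the replicate block, and with the description number as a random effect, 7 members passed in LMPP against HSC. With the replicate block 1 in place of 0 passed in KO LMPP against HSC GFP-negative cells. Depth in reads is unknown, which limits the low genes most.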
